A study of Mus musculus with 10 samples.

Results

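The enzymes that make serine and pass its carbon to folate were examined in mouse cardiomyocytes, the beating muscle cells of the heart, made to express dnMKL1, a dominant-negative version of MKL1. MKL1 is an actin-regulated coactivator of the transcription factor SRF. The group holds 10 of the 23337 genes in the authors' deposited table: Phgdh, Psat1, Psph, Shmt1, Shmt2, Mthfd1, Mthfd1l, Mthfd2, Mthfd2l and Aldh1l2. They were chosen by function around Phgdh and Mthfd2, and these were selected on their strong rise in this same comparison. The values below are therefore a description of the group and not a test of it. All 10 genes had an adjusted p-value in the table.

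The animals were wild-type mice of a GFP group and a dnMKL1 group, with 5 biological replicates in each. AAV9 virus at 5e+08 viral genomes per gram was given on postnatal day 1, and the cells were isolated on postnatal day 14. The vector of the GFP group carried GFP, and that of the dnMKL1 group carried dnMKL1 and GFP, each behind cTNT, the cardiac troponin T promoter. Collagenase perfusion of the heart and fluorescence-activated sorting preceded SMART-Seq and Nextera XT library preparation. The table compares the groups and gives no value per library, so each gene is described by its mean, its fold change and the standard error (SE) of that change, which carries the spread between the 10 libraries.

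Serine is built from the glycolytic intermediate 3-phosphoglycerate in 3 steps, by PHGDH, PSAT1 and PSPH in turn. A hydroxymethyltransferase, SHMT1 in the cytosol or SHMT2 in mitochondria, then splits serine into glycine and a carbon unit held on folate. In mitochondria MTHFD2 or MTHFD2L oxidises that unit to formyl-folate, from which MTHFD1L releases formate for the cytosol and ALDH1L2 releases carbon dioxide with gain of NADPH. In the cytosol MTHFD1 loads formate back on folate for purine and thymidylate synthesis. MTHFD2 is known for its high level in embryonic and tumour cells, and the transcription factor ATF4 is a known activator of several of these genes.

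Mkl1, from which the product of the vector derives, was listed at a log2 fold change of 9.80 (SE 0.15) in the authors' deposited table, and positive values are read from it as higher in dnMKL1 libraries. Size factors, recovered from genes with a single read, gave estimated totals of 8803028 to 17228616 counts per library, with ranges that overlap between the groups. At a Benjamini-Hochberg adjusted p-value under 0.05, the rule for a call throughout, 34.1% of the 14056 genes tested in the authors' deposited table were called, 16.6% higher and 17.4% lower. Cardiomyocyte markers such as Myh6 and Actc1 were the most abundant of the markers examined, and 5 of 6 fell. Scaling both groups to the same total count would add 0.29 to every log2 fold change. Directions that this alters are named below for the genes and sums given.

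Sequences just before the RefSeq transcription starts (build GRCm38.p6) are shown for the 4 genes that rose, because they are the members called higher. Whether they vary together over libraries cannot be read from the table. Capitals mark CCAAT on either strand (ATTGG where it lies on the other) and TGACGT on either strand (ACGTCA). The Phgdh window is chr3:98339970-98340219, that of Psat1 chr19:15925060-15925309 and that of Mthfd2 chr6:83317605-83317854, all on the minus strand, and that of Mthfd1l is chr10:3972825-3973074 on the plus strand.
Phgdh: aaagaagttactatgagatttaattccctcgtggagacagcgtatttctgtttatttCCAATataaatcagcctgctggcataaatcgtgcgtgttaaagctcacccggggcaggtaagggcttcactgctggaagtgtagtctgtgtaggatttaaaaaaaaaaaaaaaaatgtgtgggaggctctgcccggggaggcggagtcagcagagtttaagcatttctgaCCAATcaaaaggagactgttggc
Psat1: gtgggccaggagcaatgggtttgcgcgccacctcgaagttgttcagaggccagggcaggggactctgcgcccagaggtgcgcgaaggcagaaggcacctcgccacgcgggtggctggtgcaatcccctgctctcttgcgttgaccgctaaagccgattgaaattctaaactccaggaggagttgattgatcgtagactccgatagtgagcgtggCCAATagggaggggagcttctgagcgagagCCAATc
Mthfd2: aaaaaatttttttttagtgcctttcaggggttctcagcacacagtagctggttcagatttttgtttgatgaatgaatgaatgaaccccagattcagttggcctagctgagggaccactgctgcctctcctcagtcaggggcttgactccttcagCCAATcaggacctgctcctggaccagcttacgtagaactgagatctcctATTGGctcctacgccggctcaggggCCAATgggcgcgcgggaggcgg
Mthfd1l: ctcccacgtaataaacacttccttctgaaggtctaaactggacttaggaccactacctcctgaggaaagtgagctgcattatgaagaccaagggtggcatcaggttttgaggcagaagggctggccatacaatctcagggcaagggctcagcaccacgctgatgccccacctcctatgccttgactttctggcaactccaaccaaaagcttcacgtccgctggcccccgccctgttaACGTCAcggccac

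CCAAT, the letters of a common promoter element bound by NF-Y, occurred 2 times in the Phgdh window, 2 times in that of Psat1, 3 times in that of Mthfd2 and 0 times in that of Mthfd1l. Of 32851 RefSeq promoter windows of 250 bases, 33.8% held it at least once, 10.1% at least 2 times and 2.79% at least 3 times. It was not limited to genes that rose: Psph had 2 matches, Shmt1 and Mthfd1 had 1 each, and Shmt2 and Mthfd2l had 0. TGACGT, part of the cyclic AMP response element, occurred 1 time in the Mthfd1l window and in none of the other 8 members matched, against 6.47% of all windows. Among the 9 members matched, TGATGNAA, one spelling of the composite site of ATF4 and C/EBP, had 0 matches (3.45% of all windows), and so did CACGTG, the MYC E-box (6.02%), and the CArG box of SRF (1.47%). TGACNNNGC, the NRF2 element, had 1 match, in Phgdh, against 10.2% of windows. Aldh1l2 was not matched. These are matches of letters in short windows, searched on both strands, and matches of different motifs may overlap. The windows cover only the RefSeq start used for each gene. GENCODE spans of Psat1 and Mthfd2 reach further upstream, to 15947337 and 83325908, and sequence before those ends was not searched.

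Transcripts of Phgdh and Psat1 rose 14.2-fold and 3.35-fold, while Psph stayed within 1.01-fold of the GFP level. Among the 10 enzymes, 4 rose (Phgdh, Psat1, Mthfd2 and Mthfd1l), 1 fell (Mthfd2l) and 5 were not called. Over all genes tested 16.6% were higher and 17.4% lower. The median log2 fold change of the group was 0.011, against 0.021 over all genes tested. Without Phgdh and Mthfd2, for whose rise the group was picked, 2 of the other 8 were higher and 1 was lower. Under total-count scaling the split was 5 higher and 0 lower, with Psph called and Mthfd2l no longer called, where 40.4% of all genes tested were higher and 6.60% lower.

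Phgdh, the gene of the dehydrogenase that commits 3-phosphoglycerate to serine, lies at chr3:98313170-98339990 (GRCm38, the mm10 build; positions here and below are from GENCODE M21). Its implied mean, which follows from base mean and fold change, was 3.84 normalized counts in GFP libraries and 54.3 in dnMKL1 libraries. The authors' deposited table listed its log2 fold change as 3.82 (SE 0.54, adjusted p = 5.0e-11), with a 95% interval of 2.76 to 4.88. This was the 21st highest of 11914 genes whose base mean reached 10. The 95% interval of the fold ran from 6.79 to 29.5. Its SE was wider than that of genes of like abundance, whose median was 0.30 over 586 genes within 1.25-fold of its base mean. The level itself is uncertain: 63.1% of the 50-base stretches of the longest Phgdh transcript also occur in transcripts of other annotated genes, mostly predicted genes such as Gm7901, and how the authors treated reads with several matches is not given in the sources used here.

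Psat1, the aminotransferase of the second step, lies at chr19:15904678-15947337. Its implied mean was 46.0 normalized counts in GFP libraries and 154 in dnMKL1 libraries. The authors' deposited table gave a log2 fold change of 1.74 (SE 0.16, adjusted p = 2.3e-24), with a 95% interval of 1.43 to 2.06. Its SE was close to the median of 0.17 for 930 genes of like base mean, and the rise was the best determined among the 10 enzymes by its p-value. Only 1.21% of its 50-base stretches are shared with another gene.

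Psph, the phosphatase that releases serine, lies at chr5:129765558-129787449. It had implied means of 146 normalized counts in GFP and 148 in dnMKL1 libraries. The authors' deposited table gave a log2 fold change of 0.015 (SE 0.13, adjusted p = 0.952). The 95% interval of its fold was 0.846 to 1.21. Under total-count scaling its value was 0.30 and was called (adjusted p = 0.044 by the Wald test). Psph overlaps exons of Cct6a, a chaperonin subunit gene on the opposite strand, over 452 bases. Cct6a had a log2 fold change of -0.21 (SE 0.06) in the authors' deposited table, or 0.076 under total-count scaling. Whether the counting used strand is not given in the sources used here.

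**Figure D1:**
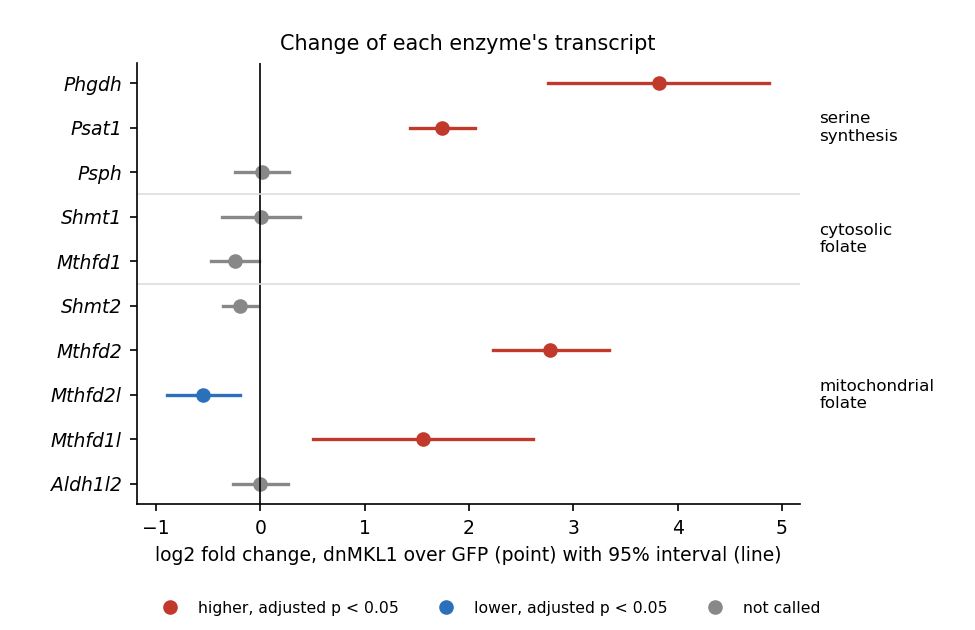
Log2 fold change (dnMKL1 over GFP, x axis) of each of the 10 enzyme genes (y axis, grouped by pathway and compartment) with its 95% interval from the authors' deposited SE as a line. Phgdh, Psat1, Mthfd2 and Mthfd1l lie right of 0 and Mthfd2l lies left of it, while the other 5 sit near 0 and were not called.

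The mitochondrial folate enzymes moved in both directions. Mthfd2 rose 6.88-fold and Mthfd1l 2.95-fold, Mthfd2l fell to 0.683 of its GFP level, and Shmt2 and Aldh1l2 were not called. Shmt2 and Aldh1l2, the abundant ones, had folds of 0.871 and 1.00.

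Shmt2 is the mitochondrial hydroxymethyltransferase, at chr10:127517123-127522444, and was the most abundant of the 10 per length. Its implied mean was 971 normalized counts in GFP libraries and 846 in dnMKL1 libraries. The authors' deposited table gave a log2 fold change of -0.20 (SE 0.08, adjusted p = 0.0510), just outside the threshold. When adjustment covered only genes whose base mean reached 10 it passed (adjusted p = 0.045 by the Wald test), and under total-count scaling its direction turned, to 0.090.

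Mthfd2, the mitochondrial methylene-folate dehydrogenase and cyclohydrolase, lies at chr6:83305691-83325908. Its implied mean was 34.6 normalized counts in GFP libraries and 238 in dnMKL1 libraries. The authors' deposited table listed its log2 fold change as 2.78 (SE 0.28, adjusted p = 1.6e-20), with a 95% interval of 2.23 to 3.34. That was the 52nd highest of the 11914 ranked genes. The SE exceeded the median of 0.15 for 1029 genes of like base mean, and how the libraries of each group spread around these means cannot be read from the table. None of its 50-base stretches (0%) occur in another annotated transcript.

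Mthfd2l, the paralog that catalyses the same reactions, lies at chr5:90931117-91021368. Its implied mean was 129 normalized counts in GFP libraries and 87.8 in dnMKL1 libraries. The authors' deposited table gave a log2 fold change of -0.55 (SE 0.18, adjusted p = 0.00800), with a 95% interval of -0.90 to -0.20. The direction held under total-count scaling but the call did not (-0.26, adjusted p = 0.22 by the Wald test). Per kilobase of exon, Mthfd2l stood above Mthfd2 in the GFP group, at 19.3 against 9.92 normalized counts per kilobase. In the dnMKL1 group the order was reversed, at 13.2 against 68.2. The share of Mthfd2 in the sum of the pair went from 33.9% to 83.8%, and from 34.9% to 84.4% when the longest transcript served as the length. The summed level of the pair went from 29.3 to 81.4 normalized counts per kilobase. A test of the difference between the paralogs needs values per library and was not run.

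Mthfd1l, the mitochondrial formyl-folate synthetase that frees formate, lies at chr10:3973118-4167081 and was the rarest of the 10 per kilobase in both groups. Its implied mean was 5.60 normalized counts in GFP libraries and 16.5 in dnMKL1 libraries. The authors' deposited table listed its log2 fold change as 1.56 (SE 0.54, adjusted p = 0.0140), with a 95% interval of 0.50 to 2.61. Its SE was near the median of 0.45 for 493 genes of like base mean. The rise did not pass a threshold of 0.01.

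Aldh1l2, which oxidises the formyl group to carbon dioxide in mitochondria, lies at chr10:83487450-83534140. Its implied mean was 717 normalized counts in both groups. The authors' deposited table gave a log2 fold change of -4.4e-05 (SE 0.13, adjusted p = 1.00), with a 95% interval of -0.26 to 0.26, and 0.29 under total-count scaling. At the branch between formate and carbon dioxide, Mthfd1l made up 1.30% of the summed level per kilobase of Mthfd1l and Aldh1l2 in GFP libraries and 3.75% in dnMKL1 libraries. Aldh1l2 overlaps exons of D10Wsu102e, a gene on the opposite strand, over 1056 bases, and 16.8% of its 50-base stretches are shared with that gene. D10Wsu102e rose, with a log2 fold change of 0.61 (SE 0.16) in the authors' deposited table.

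**Figure D2:**
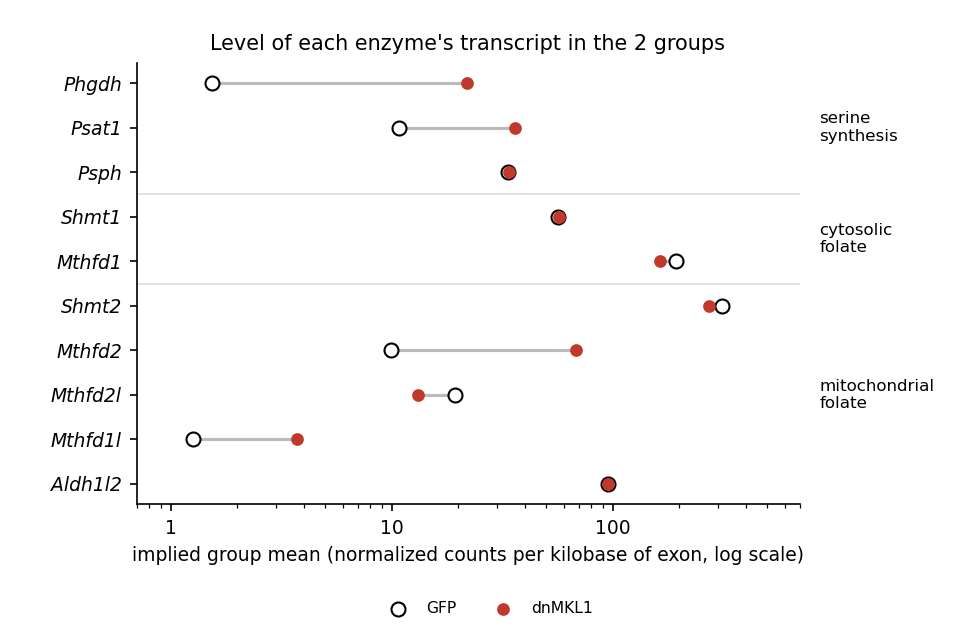
Implied group mean of each enzyme gene in normalized counts per kilobase of exon (x axis, log scale) in the GFP (open circles) and dnMKL1 (filled circles) groups; no error is given for a group mean. Phgdh, Psat1, Mthfd2 and Mthfd1l lie further right in dnMKL1, Mthfd2 passes Mthfd2l between the groups, and Shmt2 is the most abundant in both.

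The cytosolic enzymes were not called. Shmt1, the cytosolic hydroxymethyltransferase at chr11:60788104-60811718, had implied means of 220 and 221 normalized counts in the GFP and dnMKL1 groups. The authors' deposited table gave a log2 fold change of 0.0066 (SE 0.19, adjusted p = 0.984), with a 95% interval of the fold from 0.774 to 1.30. Mthfd1, the cytosolic enzyme that joins formate to folate and carries out both following steps, lies at chr12:76255298-76319803. It had implied means of 861 and 729 normalized counts, and a log2 fold change of -0.24 (SE 0.12, adjusted p = 0.0943) in the authors' deposited table. Under total-count scaling Mthfd1 turned to 0.048. Shmt2 made up 84.6% of the summed level per kilobase of the pair of hydroxymethyltransferases in GFP libraries and 82.7% in dnMKL1 libraries.

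Ordered by level per kilobase in the GFP group, the genes ran from Shmt2 (312 normalized counts per kilobase), Mthfd1 (194), Aldh1l2 (95.6), Shmt1 (56.7), Psph (33.7) and Mthfd2l (19.3) to Psat1 (10.8), Mthfd2 (9.92), Phgdh (1.54) and Mthfd1l (1.26). The 4 genes that rose were the 4 at the bottom of this order, which is partly set by the choice of genes, because the GFP level is the denominator of the fold on which Phgdh and Mthfd2 were selected. In the dnMKL1 group Mthfd2 stood at 68.2, between Aldh1l2 at 95.6 and Shmt1 at 57.0, and Psat1 at 36.2 stood next to Psph at 34.1. Phgdh reached 21.9 and Mthfd1l 3.72, still the lowest. No error is given for a level, so which neighbours in the order differ beyond the spread between libraries cannot be said.

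**Figure D3:**
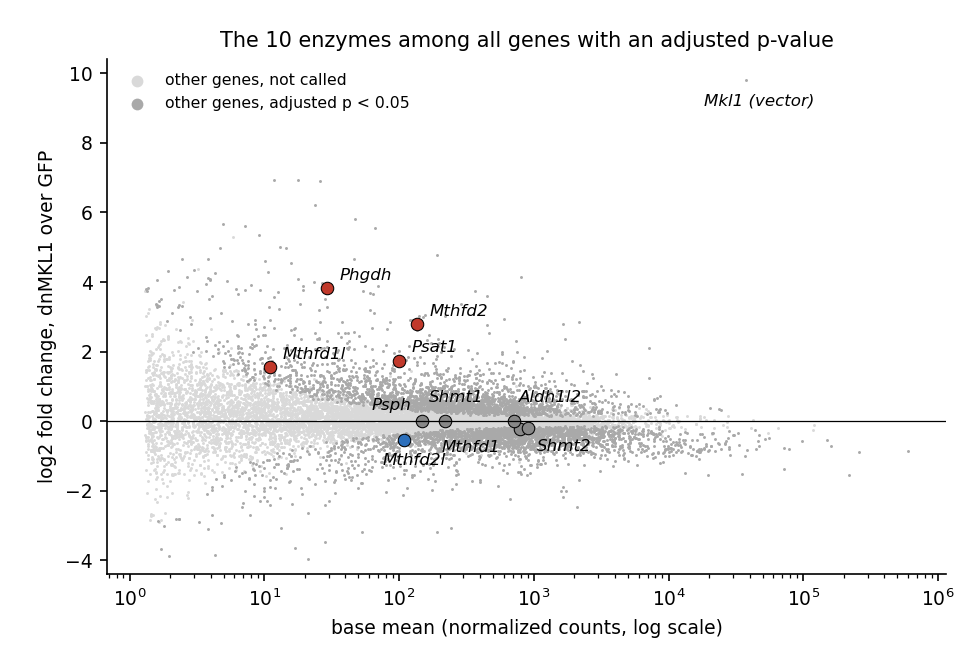
Log2 fold change (dnMKL1 over GFP, y axis) against base mean in normalized counts (x axis, log scale) for all 14056 genes with an adjusted p-value, with the 10 enzymes as large points (red higher, blue lower, grey not called). The 4 that rose have base means from 11.1 to 136, and Shmt2, Mthfd1 and Aldh1l2 lie near 0 at 717 to 908.

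The genes around these enzymes were taken from 6 lists of folate, glycine, serine, methionine, choline and purine metabolism. Of 61 genes, 52 had an adjusted p-value, and 11 of them were higher and 13 lower in the authors' deposited table, with a median log2 fold change of 0.0037. Over all genes tested 16.6% were higher and 17.4% lower, which is the background for each list below as well. Under total-count scaling the counts were 22 higher and 3 lower, where 40.4% of all genes tested were higher and 6.60% lower. Adding 0.29 to each value thus cut the called falls from 13 to 3, whereas it can only raise the count of rises.

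The list of serine and glycine transport and use held the largest rises of these lists. Of 11 genes tested 4 were higher and 1 lower, with a median of 0.32. Among the 4 was Sdsl, an enzyme and not a transporter, at 0.58 (SE 0.16), named after its value was seen. Slc6a9, a plasma membrane glycine transporter, had a log2 fold change of 2.65 (SE 0.44) in the authors' deposited table. Slc1a4, a neutral amino acid carrier that takes serine, had one of 2.24 (SE 0.35) there. Both lie outside the rule for named genes and were chosen after their values were seen. They rest on few reads, with implied GFP means of 4.57 and 14.3 normalized counts. Sfxn3, a mitochondrial sideroflexin related to the serine carrier Sfxn1, rose by 1.53 (SE 0.29) on the log2 scale in the authors' deposited table. Sfxn1 itself had 0.62 (SE 0.28, adjusted p = 0.0708 by the Wald test there), and was called at 0.91 under total-count scaling. Slc38a2, an abundant neutral amino acid transporter, fell by 0.43 (SE 0.15) there, a call that total-count scaling removed.

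Folate entry and interconversion had 2 genes higher, 1 lower and 12 not called, with a median of -0.012 that turned positive under total-count scaling. Slc46a1, the proton-coupled folate transporter, rose by 0.71 (SE 0.17) in the authors' deposited table. The other gene that rose was Aldh1l1, the cytosolic relative of Aldh1l2, by 1.83 (SE 0.37), named after its value was seen. Mtr, methionine synthase, fell by 0.31 (SE 0.11) in that table and was at -0.020 under total-count scaling. Slc25a32, the mitochondrial folate carrier, had 0.064 (SE 0.13) and Tyms, thymidylate synthase, 0.51 (SE 0.27) in the authors' deposited table, and neither was called. Both were called under total-count scaling, at 0.35 and 0.80.

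Glycine cleavage, the mitochondrial route by which glycine gives a second carbon unit, had 2 of 3 tested genes lower and 0 higher, and 1 lower under total-count scaling. Dld, the shared dihydrolipoamide dehydrogenase that also serves pyruvate dehydrogenase, fell by 1.01 (SE 0.10, adjusted p = 6.8e-20) in the authors' deposited table and stayed at -0.72 under total-count scaling. The other, Gcsh, named after its value was seen, had -0.30 (SE 0.10) in that table and -0.014 under the scaling. Gldc, the glycine decarboxylase, had a base mean of 0.774 normalized counts and no adjusted p-value, so no change could be read for it.

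The methionine cycle and transsulfuration list had 0 genes higher, 2 lower and 5 not called. Under total-count scaling this turned to 3 higher, 0 lower and 4 not called. Mat2b and Mat2a, which make S-adenosylmethionine, stood at -0.28 (SE 0.08) and -0.25 (SE 0.08) on the log2 scale in the authors' deposited table, and 0.010 and 0.039 under total-count scaling. Of the transsulfuration enzymes that use serine to make cysteine, Cth had a base mean of 4.63 and a log2 fold change of 1.10 (SE 0.64, adjusted p = 0.189), and Cbs had a base mean of 0.269 in the authors' deposited table. In the choline-derived list, Sardh, the mitochondrial sarcosine dehydrogenase, rose by 0.63 (SE 0.10) and Aldh7a1 fell by 0.35 (SE 0.09) there, the latter at -0.059 under total-count scaling. That list had 2 higher and 1 lower of 3 tested.

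Purine synthesis, a main use of formyl-folate, had 3 genes higher, 6 lower and 4 not called, with a median of -0.31. Under total-count scaling the counts were 5 higher and 2 lower, with a median of -0.025. Prps2, which makes phosphoribosyl pyrophosphate, rose by 1.39 (SE 0.20) and Adsl, adenylosuccinate lyase, fell by 0.75 (SE 0.07) in the authors' deposited table. Adsl was at -0.46 under total-count scaling and Adssl1, named after its value was seen, at -0.35, while the other 4 that fell were between -0.095 and -0.025. Of the 2 enzymes that use formyl-folate, Atic rose by 0.43 (SE 0.15) and Gart had -0.12 (SE 0.08) there, or 0.17 under total-count scaling.

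Lower glycolysis, which makes 3-phosphoglycerate and uses it further, had 1 of 7 genes higher and 3 lower, with a median of -0.18. Under total-count scaling 2 were higher and 1 lower, and the median turned positive. Pgam1, which acts on 3-phosphoglycerate, rose by 0.98 (SE 0.14) and Eno3, the muscle enolase after it, fell by 0.68 (SE 0.13) in the authors' deposited table. Gapdh and Pgk1, the enzymes before it, named after their values were seen, stood at -0.36 (SE 0.13) and -0.19 (SE 0.08) there and were called, and at -0.076 and 0.10 under total-count scaling. Pgam2, which catalyses the same step as Pgam1, was named after its value was seen. It stood at -0.18 (SE 0.10) in the authors' deposited table and was not called, or 0.11 under total-count scaling. In the GFP group Pgam2 had 13795 normalized counts per kilobase, against 132 for Pgam1. Pgam1 shares 41.5% and Gapdh 27.8% of their 50-base stretches with other annotated genes, so their counts are uncertain.

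**Figure D4:**
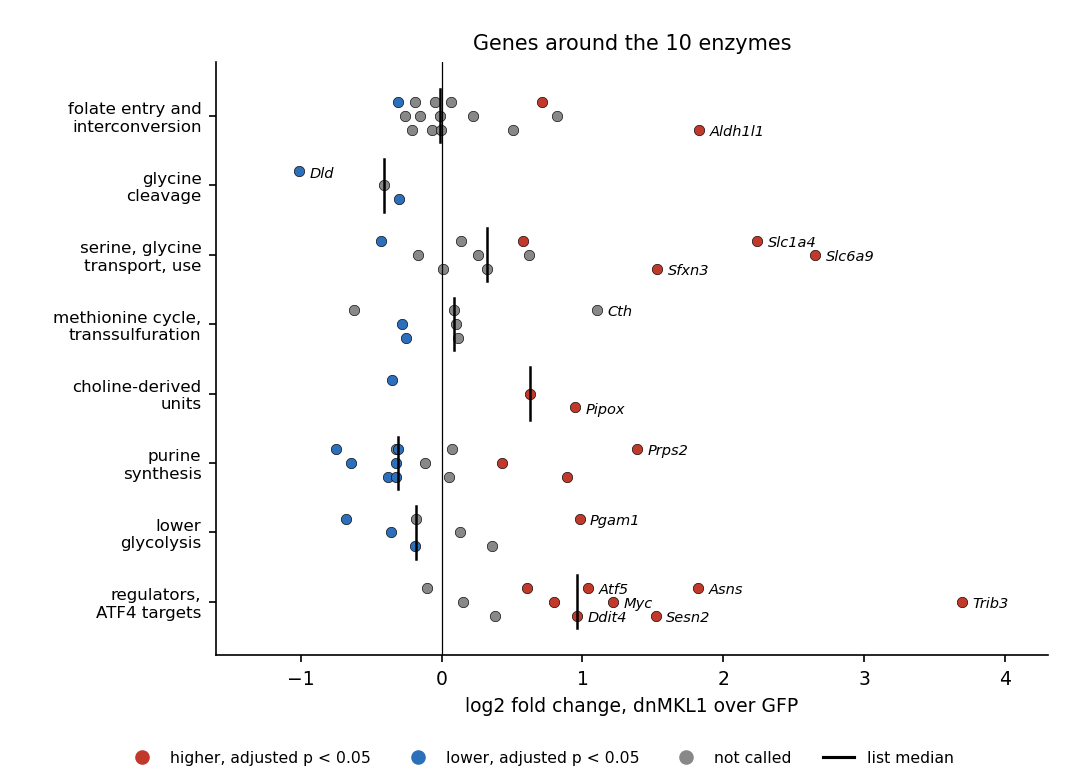
Log2 fold change (dnMKL1 over GFP, x axis) of each gene with an adjusted p-value in 8 lists around the enzymes (y axis), coloured by call, with the list median as a bar. Slc6a9, Slc1a4, Aldh1l1, Trib3 and Asns stand far to the right. The medians of glycine cleavage (-0.41), purine synthesis (-0.31), lower glycolysis (-0.18) and folate entry (-0.012) lie left of 0. Those of glycolysis and folate entry turn positive under total-count scaling.

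Regulators of serine genes and known ATF4 targets had 8 of 11 genes higher and 0 lower, with a median of 0.96. Of all genes tested, 16.6% were higher and 17.4% lower. The list was drawn up with earlier results of these data known, so its counts are a description and not a test. Atf4 itself was not called, with a log2 fold change of 0.15 (SE 0.12, adjusted p = 0.398) in the authors' deposited table, and 0.43 under total-count scaling, where it was called. Trib3, a pseudokinase induced by ATF4, rose by 3.69 (SE 0.39) there. Asns, asparagine synthetase, rose by 1.82 (SE 0.73, adjusted p = 0.0397), and its SE was far above the median of 0.16 for 1010 genes of like base mean. Chac1, another ATF4 target of the list, named after its value was seen, was not called. It had -0.10 (SE 0.23) in the authors' deposited table and 0.19 under total-count scaling. Myc rose by 1.22 (SE 0.31), and Nfe2l2, which encodes NRF2, had 0.38 (SE 0.19, adjusted p = 0.123) in the authors' deposited table and was called at 0.67 under total-count scaling.

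Markers of other cells were read beside these changes, since bulk libraries cannot tell apart more cells of a type from more RNA per cell. The cells had been sorted by fluorescence with GFP in both vectors, and the gate is not given in the sources used here. The summed implied mean of 6 fibroblast markers was 3188 normalized counts in GFP libraries against 4413 in dnMKL1 libraries, a ratio of 1.38, with 3 of 6 higher. Of 4 mural markers 2 were higher, and their sum went from 1167 to 2795, a ratio of 2.39, of which Cspg4 was the main part (501 to 2019). The 4 endothelial markers had a ratio of 1.02 with 0 called. Of 4 macrophage markers 1 was higher, and their sum went from 125 to 112. The 4 proliferation markers (Mki67, Top2a, Cdk1 and Ccnb1) had a summed ratio of 0.712 with 0 called. None of the markers with a row was at 0, and the part of these cells in the changes of the 10 enzymes was not tested. The 6 cardiomyocyte markers had a summed ratio of 0.527, of which Myh6 (768373 to 421599) and Actc1 (326267 to 111228) were the main part. Their single ratios ran from 0.341 for Actc1 to 0.870 for Myl2, which was not called. Under total-count scaling Myl2 turned to 0.087 on the log2 scale, and 4 of these 6 markers were lower and 0 higher. With that scaling 5 of 6 fibroblast, 2 of 4 mural and 1 of 4 macrophage markers were higher, where 40.4% of all genes tested were. The sums are given without the scaling, and with it that of the macrophage markers would rise. The 4 enzymes that rose had ratios of 14.2, 6.88, 3.35 and 2.95, and the single mural marker Cspg4 had one of 4.03.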

How the data were processed

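The submitters' processing notes name CASAVA 1.8, the aligner STAR 2.5.3a, the read counter featureCounts, Subread 1.5.2 and the build mm10; the gene annotation and any use of strand are not given in the sources used here. Per the file headers, the deposited comparison has the column names that DESeq2 gives its results. Its base mean is a signal in normalized counts, averaged by the authors over the libraries. Its fold change and SE are on the log2 scale, per the file headers. The deposited statistic is a score, the fold change over its SE (largest gap 1.1e-05). The deposited p-value is a Wald p-value, and the adjusted one was recomputed by the Benjamini-Hochberg method over 14056 genes (largest gap 1.4e-07).

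Implied means take the base mean as the average of 2 equal groups. Intervals of 95% are the fold change plus or minus the normal quantile times the SE. A library total was estimated by multiplying its size factor by the sum of implied means in its group. Lengths are unions of GENCODE M21 exons, matched by symbol for 10 of 10 members and 20918 genes in all. Promoters were matched for 9 of 10. Recomputation of Wald and adjusted p-values was tested on simulated data (Python 3.11.15, scipy 1.17.1).

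The members and lists were chosen with earlier results of these data known. Named genes are the 10 members, Mkl1, the largest called rise and fall of each list whose base mean reached 50, and genes fixed by role. The planned count tests could not be run on this table, and the deposited Wald test was used. The design text calls the replicates biological; whether each was 1 animal or a pool is not given in the sources used here.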

Additional observations from a re-analysis of the deposited data

How the results depend on the processing

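The 2 kinds of scaling and 6 other settings were applied to the deposited statistics. Of 14056 genes, 4792 were called (2340 higher, 2452 lower). Requiring a change of at least 1 on the log2 scale left 942 of these and 6 of the 24 called neighbours, since fewer genes can pass. Under total-count scaling, 5685 genes were higher and 927 lower. The number of members called ran from 4 to 7 around the 5 reported, and Mthfd1l lost its call at 0.01. By the shift that total-count scaling adds, 6 named genes of 36 reversed: Shmt2 to 0.090, Mthfd1 to 0.048, Aldh1l2 to 0.29, Mat2b to 0.010, Mat2a to 0.039 and Gart to 0.17. It brought calls to 7 further genes, Psph among them, and removed those of Mthfd2l, Mtr, Slc38a2 and Aldh7a1. Mat2b and Mat2a, which reversed, also lost their calls (adjusted p = 0.93 and 0.74 by the Wald test). Adjustment over every p-value changed 0 of the 36 calls. Setting the median to 0 changed 1, that of Shmt2.

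No paired analysis was possible because the table holds no values per library. For that reason fits without 1 library and other count tests were not run, and whether 1 library decides a value, Phgdh or Mthfd2 included, is unknown. Phgdh and Mthfd1l rest on few reads, with implied GFP means of 3.84 and 5.60 normalized counts.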
